A study of Rattus norvegicus with 8 samples.

Results

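The comparison described here sets the hypothalamus of control offspring given leptin soon after birth (Con-l, 2 arrays) against that of control offspring given saline (Con-s, 2 arrays). These are 4 of the 8 arrays of the study, and they were chosen by their titles alone (the design note writes Con-r for Con-l). The animals of both groups were female Sprague-Dawley rats of 21 days, born to dams on a normal diet through gestation and lactation. Leptin or saline was given from postnatal day 2 to 8. The other 4 arrays come from offspring of dams whose calories were cut by 50% between gestation days 11 and 21 and who stayed restricted postnatally, again with leptin (CR-l, 2 arrays) or saline (CR-s, 2 arrays). RNA was hybridised to Affymetrix Rat Gene 1.0 arrays. The labels say neither how many animals an RNA sample holds nor whether the replicates A and B are separate litters, so p-values and intervals speak of the spread between these samples alone. No source used here gives the leptin dose, and 1 label field can be read as saying that the dams were treated.

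Leptin is the hormone by which fat tissue reports energy stores to the brain. Its receptor signals through the kinase JAK2 and the transcription factor STAT3, with SOCS3 and the phosphatase PTP1B as brakes, and in adults it restrains the Npy and Agrp neurons of the arcuate nucleus and excites the Pomc neurons. In newborn rodents leptin hardly alters feeding. It is known there instead for promoting the outgrowth of arcuate axons towards other hypothalamic nuclei, and the comparison asks what remains of an early exposure at weaning age in animals that were not restricted.

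Values are log2 intensities of the probe set of each gene, and a difference is Con-l minus Con-s on that scale. No gene was called: 0 of 14506 genes (0%) passed a Benjamini-Hochberg adjusted p under 0.05 with limma fitted on all 8 arrays. Intervals below are 95% confidence intervals of the difference from that fit, and the adjusted p of each gene named for the comparison was 0.997 or more except where given. The smallest adjusted p was 0.592 and the next was 0.997. Without adjustment, 608 genes (4.19%) had p under 0.05, of which 316 were higher (2.18%) and 292 lower (2.01%) in Con-l, where 725 would come from uniform p-values. Of all genes 7205 (49.7%) were higher in Con-l. The median absolute difference over all genes was 0.06 and the 95th percentile 0.23. Arrays of the 2 groups differed from each other by a median of 0.08 to 0.09 per gene, against 0.09 between the Con-l arrays and 0.08 between the Con-s arrays. Across probe sets, the correlation between any 2 of the 4 arrays was 0.995 to 0.9955, and the array medians were 6.81 to 6.82. The exact two-sided permutation test of a single gene could not go below p = 0.333 with 2 arrays against 2.

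For single genes, the intervals give the sizes of difference that the spread between these samples allows. They do not cover a shift common to most genes, which the normalization would hide. The 95% confidence interval of the difference had a median half-width of 0.19, and for 13928 genes (96% of those tested) it lay wholly within 1.5-fold in either direction. Only 56 genes had an interval that reached a 2-fold difference. The estimate itself was at least 1.5-fold for 22 genes (0.152%), 14 higher and 8 lower, and at least 2-fold for 1 gene, Cga. In 4750 genes (32.7%) the Con-l and Con-s arrays did not overlap, with 2355 higher (16.2%) and 2395 lower (16.5%), so non-overlap between 2 and 2 arrays is common here.

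The gene with the smallest p was Eif3i, which encodes a subunit of the translation initiation factor eIF3. It measured 6.65 and 6.67 in Con-l, against 7.36 and 7.25 in Con-s. The replicates lay close together in both groups and the groups were well apart. The difference was -0.65 (SE 0.07, interval -0.82 to -0.48, limma adjusted p = 0.592), a 1.57-fold lower value that did not pass. In the restricted offspring Eif3i measured 6.97 and 7.09 in CR-l and 6.97 and 7.07 in CR-s, between the 2 control groups, and the leptin difference there was 0.01. The test of the difference between the 2 leptin effects gave a limma adjusted p of 0.898. Of 33 measured translation initiation factors 13 were higher and 20 lower (median -0.02), and besides Eif3i only the cap-binding protein gene Eif4e had p under 0.05 (-0.16, interval -0.30 to -0.02).

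On the higher side the leading gene was Or1o11, an olfactory receptor gene. It measured 4.60 and 4.86 in Con-l, against 3.92 and 3.87 in Con-s, differing by 0.84 (SE 0.12, interval 0.55 to 1.13, adjusted p = 0.997). These signals lie far below the array medians, as do those of Lrrc69 (4.89 and 4.28 in Con-l, 3.72 and 3.82 in Con-s, difference 0.82), P2ry10, a receptor of leukocytes (difference 0.67), and Vom2r24, a vomeronasal receptor (difference 0.59). Without Con-l replicate A the Lrrc69 difference was 0.51, and without Con-s replicate B that of Vom2r24 was 0.34. Dim probe sets supplied much of the list of largest differences. Of the 18 genes named for a difference of at least 1.5-fold with the smallest p, 10 higher and 8 lower, 9 were among the 3626 dimmest genes by mean signal and 5 were olfactory receptor genes. With 16 added to each intensity before log2, which damps dim signals most, 12 of the 18 were under 1.5-fold. These included Eif3i (-0.57), Cd7 (0.57) and Aim2 (0.55), which were not among the dimmest genes and fell just under it. Or1o11 was then at 0.46, Lrrc69 at 0.44, Vom2r24 at 0.24 and Or4k48b at -0.32, while Mtarc2, Akr1b10, Cga, Adpgk, Nqo2 and Alox15 remained at 1.5-fold or more.

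The regulatory sequence before the start of these leading genes is shown with that of Bdnf, the neurotrophin gene of the energy-balance list that holds a STAT-type motif. The sequences are RefSeq's, build GRCr8, written 5′ to 3′ on the strand of the gene, and capitals mark TTCNNNGAA, the spaced palindrome that STAT dimers bind, which reads the same on both strands. The Eif3i stretch is chr5:147226911-147227010 (minus strand), the 100 bases before the start, without a match in the 250 bases searched. The Or1o11 stretch is chr20:1021028-1021076 (minus strand) and the Bdnf stretch chr3:116619478-116619526 (plus strand), before 1 of its annotated starts.
Eif3i: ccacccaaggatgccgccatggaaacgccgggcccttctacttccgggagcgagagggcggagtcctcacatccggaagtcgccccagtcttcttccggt
Or1o11: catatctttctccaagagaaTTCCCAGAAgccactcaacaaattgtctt
Bdnf: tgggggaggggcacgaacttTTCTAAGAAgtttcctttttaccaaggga
Such a match is a description of letters and not evidence of binding. The motif stood in 7.67% of all 33469 promoter windows of the table. Of the measured genes 11970 had a window, and 792 of these (6.62%) held the motif. Among the 792 genes, 16 were higher and 20 lower at p under 0.05 (4.55%, median difference -0.01), against 248 and 217 of the 11178 genes without it (4.16%, median 0.00). Bdnf itself measured 6.28 and 6.38 in Con-l and 6.34 and 6.40 in Con-s, overlapping, with a difference of -0.04 (interval -0.19 to 0.11).

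**Figure D1:**
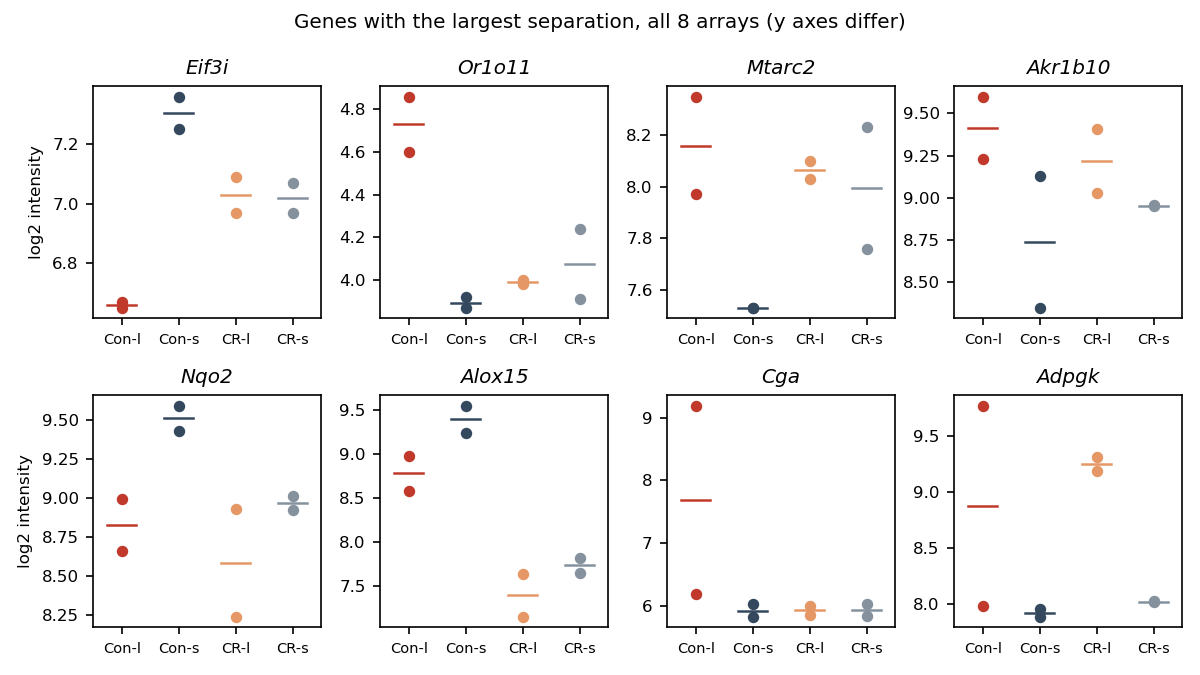
Log2 intensity of 8 genes among the largest or most separated differences, on all 8 arrays (points, arrays; bars, means of 2 arrays; y axes differ between panels). Eif3i is lowest on the 2 Con-l arrays (6.65 and 6.67), Cga is high on 1 Con-l array alone (9.19), and Adpgk is high on the other Con-l array and on both CR-l arrays.

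Among brighter genes past 1.5-fold, Mtarc2, which encodes a mitochondrial reductase, measured 7.97 and 8.35 in Con-l, against 7.53 and 7.53 in Con-s (difference 0.63, SE 0.17, interval 0.24 to 1.03). The groups were apart, but the CR arrays (8.10 and 8.03 in CR-l, 7.76 and 8.23 in CR-s) lay within the Con-l range or between the control groups. Akr1b10, an aldo-keto reductase gene, measured 9.60 and 9.23 in Con-l and 8.35 and 9.13 in Con-s (difference 0.67, interval 0.07 to 1.27). Its distance rested on Con-s replicate A, without which it was 0.28. Nqo2, a quinone reductase gene, measured 8.99 and 8.66 in Con-l, against 9.59 and 9.43 in Con-s (difference -0.68, SE 0.21, interval -1.18 to -0.18). Alox15, which encodes a lipoxygenase of arachidonic acid, measured 8.98 and 8.58 in Con-l, against 9.24 and 9.55 in Con-s (difference -0.61, SE 0.20, interval -1.08 to -0.15). For both, the leptin difference in restricted offspring pointed the same way and was smaller, -0.38 for Nqo2 and -0.34 for Alox15. Neither reached p under 0.05 there (limma unadjusted p = 0.117 and 0.125). The restricted arrays of Nqo2 overlapped (8.24 and 8.93 in CR-l, 8.92 and 9.01 in CR-s). The next genes, up to Aim2, had signals below the array medians. Krt16, a keratin gene, measured 4.18 and 4.44 in Con-l and 5.32 and 4.67 in Con-s, differing by -0.69 (-0.36 without Con-s replicate A). The olfactory receptor genes Or8b1d (2.77 and 2.65 in Con-l, 3.56 and 3.27 in Con-s) and Or4k48b (2.86 and 2.83, against 3.74 and 3.63) differed by -0.71 and -0.84. Or4f60 differed by -0.69 (-0.33 without Con-l replicate A). Or1o2, a further olfactory receptor gene, measured 3.29 and 3.62 in Con-l and 4.92 and 3.48 in Con-s. These overlapped, and the difference of -0.75 (interval -1.74 to 0.25) was -0.02 without Con-s replicate A. Aim2, a sensor of cytosolic DNA, differed by 0.71 (0.26 without Con-s replicate B), and the lymphocyte gene Cd7 by 0.64 (0.35 without Con-l replicate B). In all, 10 of the 18 genes had a difference smaller by over 1.5 times with 1 control array left out.

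Differences that rested on 1 array included the largest. Cga, the alpha subunit shared by the pituitary glycoprotein hormones, measured 9.19 and 6.19 in Con-l, against 6.03 and 5.83 in Con-s. Only Con-l replicate A was high, and all 4 restricted arrays lay between 5.84 and 6.04. The difference of 1.76 (SE 0.80, interval -0.11 to 3.63) was 0.26 without Con-l replicate A, and without Con-l replicate B, where replicate A stands alone for the group, Cga was the 1 gene called (3.26, limma adjusted p = 0.00312). Adpgk, which encodes an ADP-dependent glucokinase, measured 7.99 and 9.77 in Con-l, against 7.96 and 7.89 in Con-s. Here replicate B was high, and so were both CR-l arrays (9.19 and 9.31, against 8.03 and 8.02 in CR-s), so that 3 of the 4 leptin arrays and none of the 4 saline arrays exceeded 9. Its differences were 0.95 in controls (SE 0.47, interval -0.16 to 2.07) and 1.22 in restricted offspring (unadjusted p under 0.05 there, not passing after adjustment). Without Con-l replicate A, where replicate B stands alone, Adpgk was the 1 gene called (1.85, limma adjusted p = 0.00632), and without replicate B its difference was 0.06.

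The 15 measured energy-balance genes comprise feeding peptides, melanocortin receptors, leptin signalling genes and Bdnf. Of these 13 had lower values in Con-l and 2 higher, where 49.7% of all genes were higher. For 7 genes the Con-l arrays lay below both Con-s arrays, against 16.5% of all genes, and 3 were lower at p under 0.05, against 2.01% of all genes, none of them passing the adjusted test. Con-s replicate A stood above Con-s replicate B in 14 of the 15 genes and was the highest of the 4 control arrays in 11. Values without that array are given beside the genes whose difference it moved most.

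Among peptides that raise food intake, Npy measured 9.11 and 8.97 in Con-l, against 9.50 and 9.27 in Con-s. Both Con-l arrays were lower than both Con-s arrays, with a difference of -0.34 (SE 0.13, interval -0.66 to -0.02), or -0.23 without Con-s replicate A. Agrp, co-expressed with Npy in arcuate neurons and encoding an antagonist of melanocortin receptors, measured 7.53 and 7.37 in Con-l and 7.54 and 7.50 in Con-s. The groups overlapped, and the difference was -0.07 (interval -0.37 to 0.23). Pmch, the gene of melanin-concentrating hormone in the lateral hypothalamus, measured 11.13 and 11.19 in Con-l, against 11.53 and 11.22 in Con-s (difference -0.21, interval -0.46 to 0.03). Without Con-s replicate A the Pmch difference was -0.06. Hcrt, the gene of the wakefulness peptides orexin A and B, measured 9.47 and 9.21 in Con-l and 9.75 and 9.40 in Con-s, overlapping (difference -0.23, interval -0.54 to 0.07, and -0.05 without Con-s replicate A). The opioid precursor Pdyn differed by -0.17 (interval -0.38 to 0.05) and Npb, the gene of neuropeptide B, by -0.14 (interval -0.33 to 0.04). Over all 13 measured genes of this list 10 were lower and 3 higher, the median was -0.12 where that of all genes was 0.00, and Npy alone had p under 0.05. That median was -0.06 without Con-s replicate A and -0.05 without Con-l replicate B.

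Among peptides that lower food intake, Pomc, the precursor of alpha-MSH, measured 6.43 and 6.31 in Con-l, against 6.58 and 6.45 in Con-s, differing by -0.14 (SE 0.07, interval -0.32 to 0.03), or -0.07 without Con-s replicate A and -0.08 without Con-l replicate B. Cartpt, co-expressed with Pomc in the arcuate nucleus, measured 10.04 and 9.88 in Con-l, against 10.20 and 10.06 in Con-s (difference -0.17, interval -0.37 to 0.03, and -0.10 without Con-s replicate A or -0.09 without Con-l replicate B). In both genes the arrays did not overlap but the margin between the nearest arrays was small. Oxt, the oxytocin gene of paraventricular and supraoptic neurons, measured 11.28 and 11.29 in Con-l, against 11.70 and 11.45 in Con-s. The groups were apart by -0.29 (SE 0.09, interval -0.51 to -0.07), or -0.16 without Con-s replicate A. Adcyap1, which encodes PACAP, a peptide of the ventromedial nucleus among others, had the smallest p of this list: it measured 9.24 and 9.12 in Con-l, against 9.53 and 9.42 in Con-s, differing by -0.29 (SE 0.07, interval -0.47 to -0.12, adjusted p = 0.997). Vip, the gene of a peptide of the circadian pacemaker, pointed the other way, with 5.90 and 5.94 in Con-l against 5.46 and 5.59 in Con-s (difference 0.39, interval -0.06 to 0.85). Of the 21 measured genes 9 were higher and 12 lower, with a median of -0.01.

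**Figure D2:**
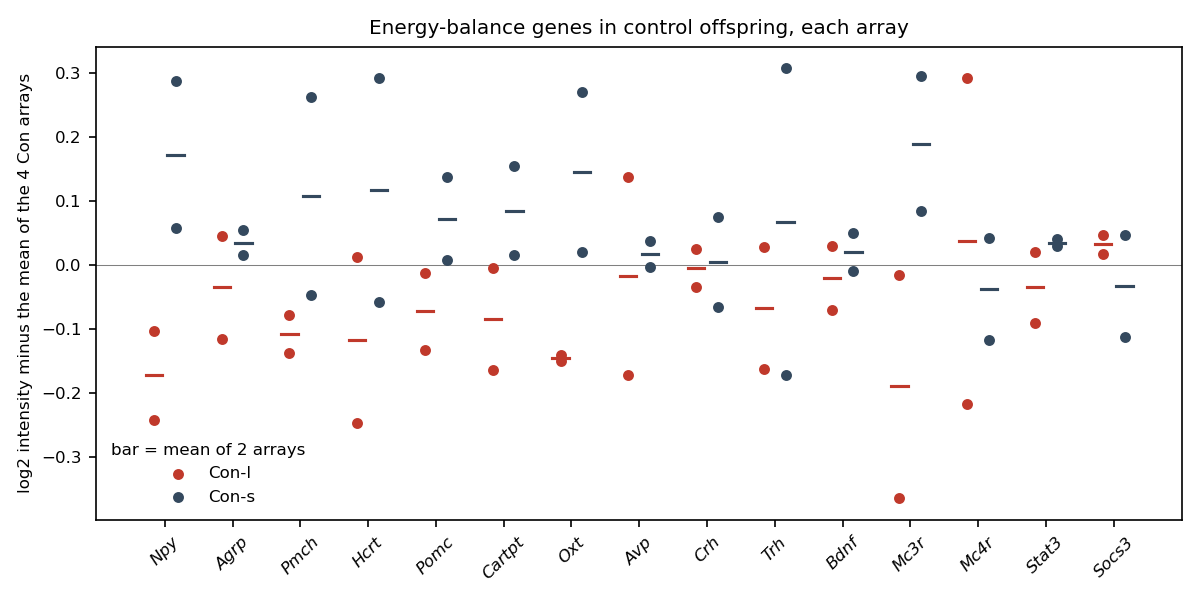
Log2 intensity of 15 energy-balance genes minus each gene's mean over the 4 control arrays (points, arrays; bars, means of 2 arrays; Con-l left of Con-s for each gene). The Con-l arrays lie below both Con-s arrays for Npy, Pmch, Pomc, Cartpt, Oxt, Mc3r and Stat3, and overlap them for the other 8 genes.

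The remaining hormones of neuroendocrine neurons showed the same small values. Avp, the vasopressin gene, measured 9.75 and 10.06 in Con-l and 9.96 and 9.92 in Con-s (difference -0.04). Crh, which drives the adrenal axis, measured 7.10 and 7.16 in Con-l and 7.21 and 7.07 in Con-s (difference -0.01, interval -0.17 to 0.15), and Trh, which drives the thyroid axis, 9.60 and 9.41 in Con-l and 9.88 and 9.40 in Con-s (difference -0.13, and 0.10 without Con-s replicate A). All 3 genes overlapped between the groups. Ghrh, the releasing factor of growth hormone, differed by -0.15 (interval -0.31 to 0.01) and Gnrh1, which drives the gonadotropins, by 0.14 (interval -0.11 to 0.39). Of 11 measured releasing and magnocellular hormone genes 10 were lower, with a median of -0.11, which was 0.02 without Con-l replicate A.

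Receptors of these peptides had a median of -0.05, with 23 of 32 measured genes lower. Mc3r, a melanocortin receptor of arcuate neurons, measured 6.33 and 5.98 in Con-l, against 6.64 and 6.43 in Con-s. The arrays did not overlap, and the difference was -0.38 (SE 0.14, interval -0.72 to -0.04), with -0.27 without Con-s replicate A and -0.21 without Con-l replicate B. Mc4r, the receptor through which melanocortins restrain feeding, measured 7.58 and 7.07 in Con-l and 7.33 and 7.17 in Con-s. Its replicates in Con-l were further apart than the groups (difference 0.07, interval -0.38 to 0.53). Nmur1, a neuromedin U receptor, measured 5.85 and 6.05 in Con-l, against 5.46 and 5.63 in Con-s (difference 0.41, SE 0.10, interval 0.18 to 0.64), the smallest p of its list, on a probe set below the array median. Glp1r, the receptor of glucagon-like peptide 1, differed by -0.25 (interval -0.50 to 0.00) and Ntsr1, a neurotensin receptor, by -0.19 (interval -0.41 to 0.03).

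Measured transcripts of the leptin receptor pathway differed by -0.10 to 0.12, and the activity of their proteins was not measured. Of 31 genes listed 24 were measured, 13 were higher and 11 lower, the median was 0.01, and none had p under 0.05, where 4.19% of all genes did. Stat3 measured 9.26 and 9.15 in Con-l, against 9.28 and 9.27 in Con-s (difference -0.07, interval -0.23 to 0.09). Socs3, the feedback inhibitor that STAT3 induces, measured 6.53 and 6.56 in Con-l and 6.56 and 6.40 in Con-s, overlapping (difference 0.06, interval -0.18 to 0.31). The genes with the smallest p were Ptpn1, which encodes PTP1B (0.12, interval -0.03 to 0.26), Jak2 (0.10, interval -0.06 to 0.27), Pias3, an inhibitor of STAT3 (0.11, interval -0.07 to 0.29), and Stat5a (-0.09, interval -0.24 to 0.07). The leptin receptor gene Lepr was not analysed here, since no probe set names it alone. The interval of Stat3 reaches no further than -0.23, and those of Ptpn1 and Jak2 no further than 0.26 and 0.27.

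Genes that process and store prohormones had a median of -0.03 (5 of 12 higher). Pam, which amidates peptides such as oxytocin, measured 11.12 and 11.04 in Con-l, against 11.29 and 11.22 in Con-s (difference -0.18, interval -0.32 to -0.04). Pcsk1n, an inhibitor of prohormone convertase 1, the granin gene Scg2 and the convertase gene Pcsk2 were apart and lower by -0.11 (interval -0.25 to 0.03), -0.11 (interval -0.24 to 0.03) and -0.12 (interval -0.33 to 0.09). Of the 12 genes 1 was apart and higher and 5 apart and lower, where 16.2% and 16.5% of all genes were. In bulk tissue, fewer cells of a type and less RNA per cell cannot be told apart, which holds for each peptide and receptor given here.

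Transcription factors that specify hypothalamic neurons were measured for 27 of 38 genes, 10 higher and 17 lower (median -0.04). Lhx6 measured 7.76 and 7.48 in Con-l, against 7.40 and 7.21 in Con-s (difference 0.32, interval 0.07 to 0.56). Sim1, required for the paraventricular nucleus, measured 7.28 and 7.25 in Con-l, against 7.48 and 7.36 in Con-s (difference -0.16, interval -0.31 to -0.01). Lhx1, a factor of the suprachiasmatic nucleus, differed by -0.15 (interval -0.28 to -0.01) and Nkx2-1, which patterns the ventral hypothalamus, by -0.17 (interval -0.35 to 0.02). Of the 27 factors 4 were apart and higher and 9 apart and lower, where 16.2% and 16.5% of all genes were.

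Axon growth and guidance genes, the group nearest to the known action of neonatal leptin, did not stand out by median or by share at p under 0.05. Of those measured, 4 were apart and higher and 14 apart and lower, where 16.2% and 16.5% of all genes were. Of 65 listed 54 were measured, 23 were higher and 31 lower, the median was -0.01, the range was -0.24 to 0.23, and 2 genes (3.7%) had p under 0.05. Unc5a, a repulsive netrin receptor, measured 8.53 and 8.49 in Con-l, against 8.84 and 8.66 in Con-s (difference -0.24, interval -0.43 to -0.05). Plxnd1, a semaphorin receptor, measured 7.60 and 7.48 in Con-l, against 7.20 and 7.42 in Con-s (difference 0.23, interval 0.01 to 0.44), and its ligand gene Sema3e differed by 0.17 (interval -0.01 to 0.35). The ephrin gene Efna1 differed by 0.13 (interval -0.01 to 0.27). Genes of immature neurons had a median of 0.05 (9 of 13 higher, none at p under 0.05, Dlx5 at 0.14). Neurotrophins and glial growth factors had a median of -0.01, none of 25 at p under 0.05, with Gfra2, a receptor of the GDNF family, at -0.16 (interval -0.34 to 0.02).

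The glutamate, GABA and presynaptic lists had medians of 0.00 to 0.04. In the glutamate list 20 of 29 genes were higher (median 0.04, none at p under 0.05), led by the receptor genes Grin2c (0.21, interval -0.01 to 0.43), Grm3 (0.17, interval -0.02 to 0.36) and Grm2 (0.57, interval -0.16 to 1.30). Grm2 measured 7.85 and 8.14 in Con-l, against 7.08 and 7.77 in Con-s, and Con-s replicate A was the low array. In the GABA list 11 of 21 genes were higher (median 0.00, none at p under 0.05), with Gabrb1 at -0.17 and Gabrq at -0.26. Presynaptic genes split evenly, 10 higher and 10 lower (median 0.00), with Snap25, of the vesicle fusion machinery, at -0.08. Of 32 monoamine genes 22 were lower (median -0.04), and Slc18a1 (0.27), the noradrenaline transporter gene Slc6a2 (0.17) and the histamine receptor gene Hrh1 (-0.21) had p under 0.05, 9.38% of the list against 4.19% of all genes. The signals of Slc18a1 and Slc6a2 were below the array medians. The perineuronal matrix list had a median of 0.06 (9 of 14 higher, Has3 at 0.17 with interval 0.00 to 0.33). In that list 7 genes were apart and higher and 2 apart and lower, as were 7 and 2 of the 29 glutamate genes. Among all genes 16.2% were apart and higher and 16.5% apart and lower.

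Some lists that answer to hormones, activity and metabolism held a larger share of genes at p under 0.05 than the 4.19% of all genes, on few genes each. The glucocorticoid-induced and cholesterol lists had 2 each (11.1% of either list) and the immediate early list 2 (10%). Among 18 glucocorticoid-induced genes 12 were lower (median -0.05), and Zbtb16 measured 7.70 and 7.40 in Con-l, against 7.97 and 7.93 in Con-s (difference -0.40, SE 0.11, interval -0.65 to -0.15). Hif3a, a regulator of hypoxia factors, measured 6.35 and 6.59 in Con-l, against 6.94 and 6.83 in Con-s (difference -0.41, SE 0.12, interval -0.70 to -0.12). The other genes of the list did not share this size, and Fkbp5 and Sgk1, the most used reporters of glucocorticoid action, stood at -0.03 and 0.01. Nr4a1, an early response gene, measured 7.0 and 6.87 in Con-l, against 6.55 and 6.62 in Con-s (difference 0.35, SE 0.08, interval 0.17 to 0.54), and Junb differed by 0.22 (interval 0.04 to 0.41). In their list 15 of 20 genes were higher (median 0.06), while Nr4a2 differed by -0.19. In the cholesterol list 14 of 18 were lower (median -0.10), and Fdps, an enzyme of the isoprenoid pathway, measured 10.53 and 10.60 in Con-l, against 10.81 and 10.81 in Con-s (difference -0.24, SE 0.06, interval -0.39 to -0.10). Fdft1, squalene synthase, differed by -0.21 (interval -0.35 to -0.06). The list median was -0.05 without Con-s replicate B.

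Circadian clock genes had a median of -0.03, with the repressor gene Nr1d2 at -0.21 (interval -0.36 to -0.05) and Nfil3 at 0.26 (interval 0.04 to 0.48). Of 15 measured, 13.3% had p under 0.05, against 4.19% of all genes. In this list 3 genes were apart and higher and 6 apart and lower, where 16.2% and 16.5% of all genes were. Cytokine genes had a median of 0.07 with 16 of 27 higher, and 11 were apart and higher and 5 apart and lower. Of these genes Ccl2 (0.24), Il6 (0.24) and Il1a (0.40) were higher and Il1b lower (-0.26) at p under 0.05, 14.8% of the list. All 4 probe sets were below the array medians, and those of Il1b, Il6 and Il1a were among the 3626 dimmest genes, of which 7.31% had p under 0.05. The IGF axis (median 0.03, Igfbp3 at 0.15), energy sensing (-0.01, Prkab1 at -0.12), thyroid hormone transport and response (0.01, Klf9 at -0.15), interferon response (-0.03, RT1-Da at 0.31), heat shock and endoplasmic reticulum stress (0.00, Dnajb9 at -0.14), chromatin (0.01, Kdm6b at 0.11) and cell cycle (-0.02, Mcm6 at -0.15) had no member at p under 0.05. Over all 41 lists, 19 medians were above and 22 below 0, and the medians ran from -0.23 to 0.10.

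Markers of other cells and of neighbouring tissue moved with single arrays. For the meningeal list 15 of 16 genes were higher (median 0.10), but by array its median was 0.23 on replicate A and -0.10 on replicate B of Con-l, against -0.04 and -0.09 in Con-s, relative to the 4 control arrays. Its summed intensity was 8539 and 6428 in Con-l, against 6845 and 6480 in Con-s, and the list median was -0.01 without Con-l replicate A. Aldh1a2, a retinoic acid synthase of meninges, measured 7.16 and 6.86 in Con-l, against 6.66 and 6.58 in Con-s (difference 0.39, interval 0.16 to 0.63), and Ogn was high on replicate A alone (10.20 and 9.60, against 9.67 and 9.45). Striatal neuron markers showed the same array: their median was 0.21 on replicate A and -0.13 on replicate B of Con-l, against -0.09 and -0.07 in Con-s, and their summed intensity was 5257 and 3918 in Con-l, against 4043 and 4060 in Con-s. Ppp1r1b, the DARPP-32 gene, measured 8.56 and 7.80 in Con-l, against 7.81 and 7.78 in Con-s. For the pituitary list the sum was 1174 and 647 in Con-l, against 656 and 620 in Con-s, with Cga the high gene on replicate A. Of its 11 measured genes 9 were higher (median 0.05), and the list was apart by array. Tshb, whose product pairs with that of Cga in thyrotropin, measured 4.93 and 4.30 in Con-l and 4.39 and 4.46 in Con-s, overlapping (difference 0.19), and was also highest on replicate A. Gh1, Prl, Lhb and Fshb differed by -0.08, 0.01, 0.01 and 0.01. The part of tissue makeup in these differences, and in the others given here, was not tested.

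Red blood cell genes were lower in 7 of 8 cases (median -0.23), with summed intensity 5283 and 4496 in Con-l, against 4843 and 6490 in Con-s. Con-s replicate B was the high array, and without it the median was -0.01, while it was -0.39 without Con-s replicate A and -0.10 without Con-l replicate B. Thalamic markers ranged from -0.21 on Con-s replicate A to 0.21 on Con-s replicate B, with the Con-l arrays between them at -0.03 and 0.11. Ependymal and tanycyte markers lay at 0.12 on Con-l replicate A and -0.17 on replicate B, around Con-s at 0.00 and -0.01. The cortical and hippocampal list had a median of -0.04 (3 of 10 higher), and the choroid plexus list -0.01, although Ttr, its most typical transcript, measured 6.36 and 6.18 in Con-l, against 6.92 and 6.48 in Con-s (difference -0.43, interval -0.89 to 0.02).

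With an array left out, the oligodendrocyte lists had medians of 0.04 to 0.10 (myelin) and 0.03 to 0.07 (precursors). The astrocyte median then ran from -0.04 to 0.02, that of microglia from -0.10 to 0.04 and that of vessel cells from -0.01 to 0.04. Myelin genes were higher in 18 of 20 cases (median 0.06), with the list at 0.02 and 0.07 on the Con-l arrays, against -0.06 and 0.00 in Con-s. Aspa, an enzyme of oligodendrocytes, measured 9.31 and 9.44 in Con-l, against 9.15 and 9.17 in Con-s (difference 0.22, interval 0.03 to 0.41), and Mog, a myelin glycoprotein, differed by 0.14 (interval -0.07 to 0.35). Oligodendrocyte precursor genes were higher in 8 of 10 cases (median 0.03), with the list at 0.03 and 0.05 in Con-l and -0.04 and -0.04 in Con-s, and Olig1 at 0.12 (interval -0.02 to 0.26). Both lists were apart by array, as were 19 of the 41 lists (8 higher and 11 lower), where 32.7% of genes were. The astrocyte list had a median of -0.01 (Gfap at 0.24, interval -0.16 to 0.64), microglia -0.03 (Cd68 at 0.28, interval 0.01 to 0.55) and vessel cells 0.00, with Tagln, a smooth muscle gene, at 8.02 and 8.04 in Con-l, against 7.76 and 7.79 in Con-s (difference 0.25, SE 0.06, interval 0.12 to 0.38).

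**Figure D3:**
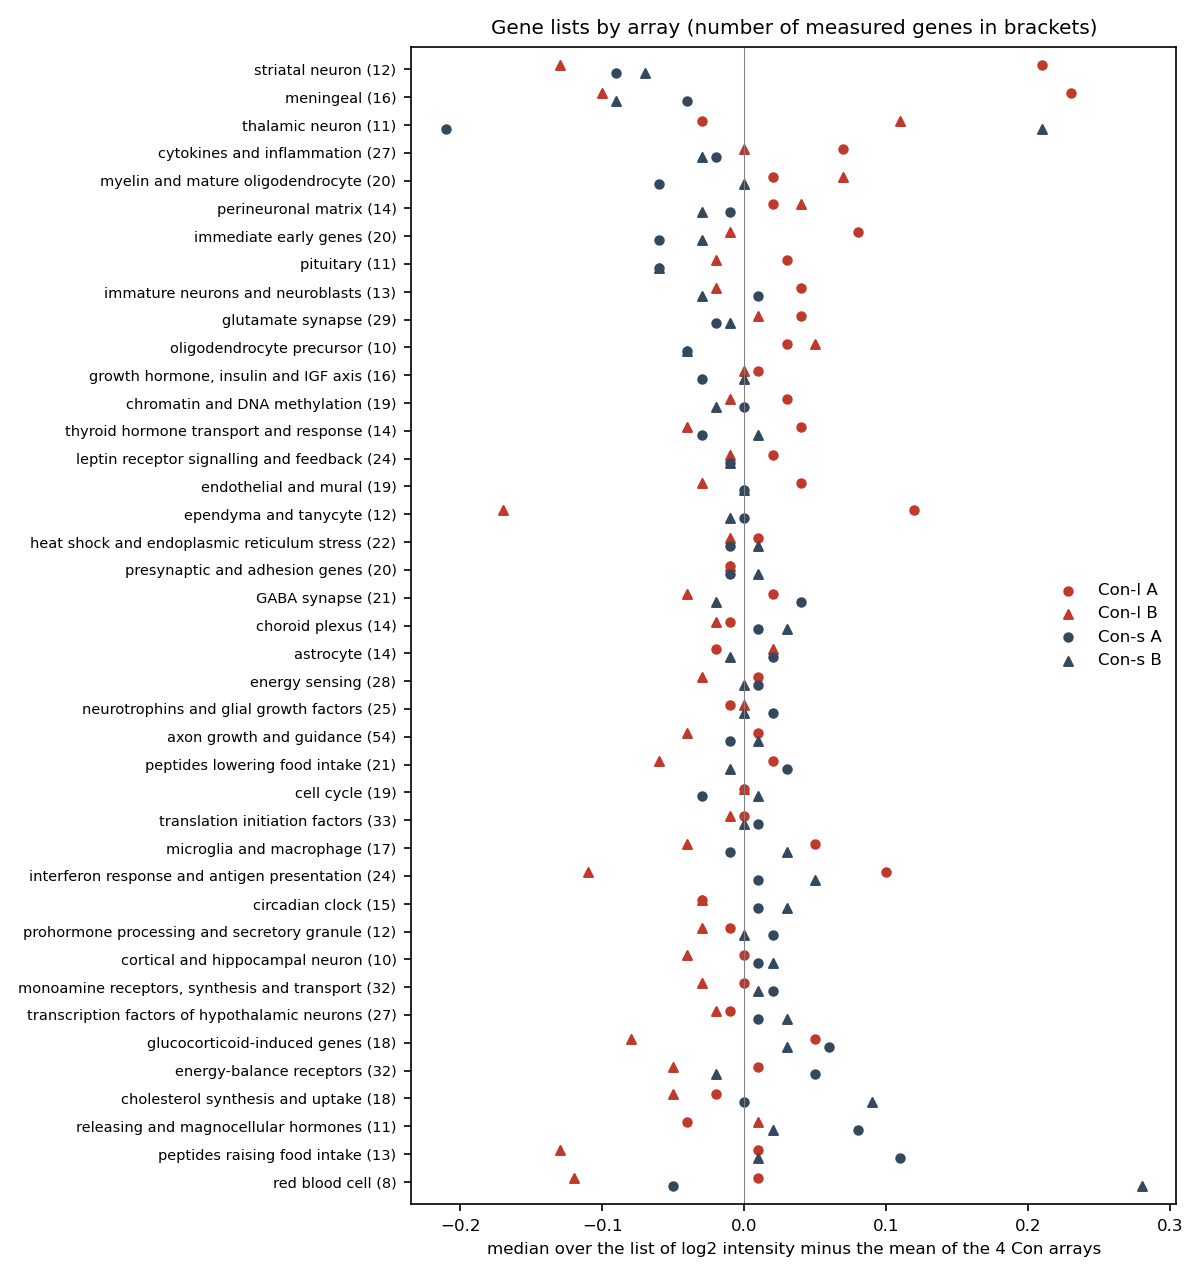
For 41 gene lists, the median over the list of log2 intensity minus each gene's mean over the 4 control arrays (Con-l above Con-s in each row; circles, replicate A; triangles, replicate B). Striatal, meningeal and ependymal lists spread most between the 2 Con-l arrays, and thalamic and red blood cell lists between the 2 Con-s arrays.

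The same treatment was measured on 4 other arrays, in restricted offspring, and the 2 leptin comparisons share no array. Across the 14506 genes, which are not independent replicates and share their normalization, the leptin differences in the 2 diets had a Pearson correlation of 0.0229 and a Spearman correlation of 0.0188. Their signs agreed in 7311 genes (50.4%). Of the 608 genes at p under 0.05 in controls, 262 (43.1%) had the same sign in restricted offspring. In restricted offspring 849 genes (5.85%) had p under 0.05, and 68 were in both sets, 11.2% of the control set and 8.01% of the restricted set, 37 with the same sign and 31 with the opposite one. For the 18 genes named for differences of at least 1.5-fold the sign agreed in 13.

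The difference between the 2 leptin effects was tested for each gene, and 0 of 14506 genes passed (smallest limma adjusted p 0.278, 747 genes or 5.15% at p under 0.05). The smallest p was that of Or5b104, an olfactory receptor gene at 2.33 and 2.48 in Con-l, against 2.89 and 2.82 in Con-s (-0.45 in controls and 0.58 in restricted offspring). Pvr, a nectin-like adhesion protein, differed by -0.23 in controls and 0.79 in restricted offspring, and Retsat, a retinol saturase, by 0.02 and -0.86. Clk1, a kinase of splicing factors, measured 10.10 and 10.09 in Con-l, against 9.76 and 9.65 in Con-s, differing by 0.39 (SE 0.08), beside -0.18 in restricted offspring. The mast cell gene Cpa3 had 0.40 and -0.16, and Or5p59, Or7e171b and Or2v2c had 0.28 and -0.34, -0.34 and 0.20, and 0.25 and -0.63 in controls and restricted offspring. For Npy the leptin differences were -0.34 and 0.21 (limma adjusted p of their difference 0.898), for Oxt -0.29 and 0.05 (adjusted p = 0.898) and for Agrp -0.07 and -0.10 (adjusted p = 0.992), so none of these peptides was shown to respond differently under the 2 diets.

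**Figure D4:**
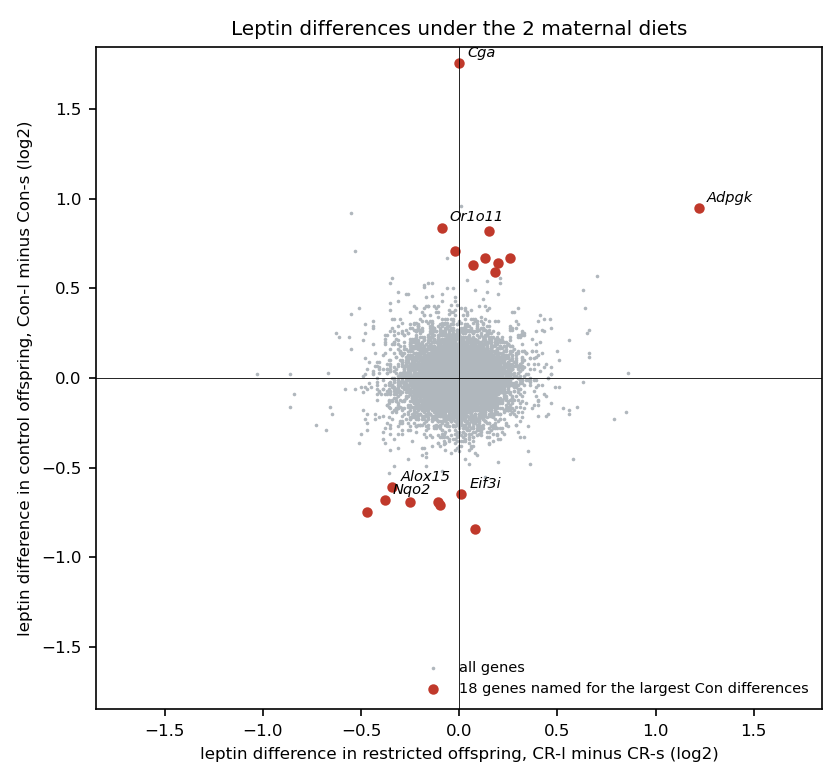
Leptin difference of each of 14506 genes in control offspring (Con-l minus Con-s, vertical) against that in restricted offspring (CR-l minus CR-s, horizontal), both in log2 units. The cloud has no visible slope (Pearson correlation 0.0229), and among the 18 marked genes Adpgk alone exceeds 0.9 in both diets.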

How the data were processed

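RNA from the hypothalamus was measured on 8 arrays, 2 per group, grouped by their titles. The authors made the deposited intensities with RMA in Affymetrix Expression Console, per the submitters' processing notes; no source used here gives versions or a genome build. The deposited intensities are linear, since they reach far beyond log2 signals, so log2 was taken and nothing was normalized again. Because RMA normalized the arrays together, a shift common to most genes would not be visible. The number of arrays limits the precision.

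Of 29215 probe sets, 15310 carried 1 gene symbol, updated through RefSeq (GRCr8) by Entrez number (15279) or accession (6), while 25 kept the array's symbol. Of several probe sets the brightest was kept, leaving 14506 genes. A limma fit (limma 3.58.1, R 4.3.3) of 4 group means with 4 residual and 3.21 prior degrees of freedom gave two-sided p-values, Benjamini-Hochberg adjusted over all genes. The fit was tested on simulated data. Genes named are 16 energy-balance genes (15 measured), up to 10 per direction of at least 1.5-fold by p, up to 4 per list by p, and 10 by the difference between leptin effects. Fkbp5, Sgk1, Gh1, Prl, Lhb and Fshb were named after their values were seen. The members and the 41 gene lists were chosen with earlier results of these data known. Alternatives covered the samples fitted, variance model, dim genes, normalization, pseudocount, probe sets, replicate letters and each array left out.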

Additional observations from a re-analysis of the deposited data

How the results depend on the processing

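No gene was called under any of the 9 settings that kept all arrays of the comparison (smallest limma adjusted p from 0.0949 with the dimmer genes left out, keeping the upper 60 percent, to 1 with all probe sets), and the count at an unadjusted p under 0.05 ran from 433 of 8704 genes with that filter to 703 with cyclic loess, and was 1242 of 29215 when all probe sets were tested together, since more were tested. With 1 array left out, 0 to 1 genes were called (Cga without Con-l replicate B, Adpgk without Con-l replicate A), the count at p under 0.05 was 508 to 737, and 0 to 1 genes were called for the difference between the leptin effects. A group left with 1 array is assumed to vary like the others. The number of lists with a median at least 0.1 from 0, 4 of 41, became 4 to 9. Among the energy-balance genes, signs turned when an array was left out for Agrp (-0.15 to 0.01), Avp (-0.19 to 0.12), Crh (-0.08 to 0.06), Trh (-0.37 to 0.10), Mc4r (-0.18 to 0.33), Socs3 (-0.02 to 0.14) and Bdnf (-0.09 to 0.01); the cause was not tested. Counted on rounded medians, with lists at 0.00 left out of the count, 18 of the 41 lists also turned with an array left out. Among them were the energy-balance receptors (-0.08 to 0.02), glucocorticoid-induced genes (-0.14 to 0.04), interferon response (-0.12 to 0.05), releasing hormones (-0.11 to 0.02) and striatal markers (-0.05 to 0.28). Under the other settings 0 turned by that count. Some lists at 0.00 also had values on both sides with an array left out: ependymal and tanycyte markers (-0.16 to 0.10), GABA synapse (-0.04 to 0.02) and vessel cells (-0.01 to 0.04). With 16 added before log2, 12 of the 18 genes of at least 1.5-fold were under it. With the letters A and B as a replicate block, 0 genes were called and 689 had p under 0.05. Deviations of same-lettered arrays correlated at 0.05, so the letters were not taken as pairs.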

Other observations

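Olfactory receptor genes, which this tissue is not known for, serve as a gauge of dim probe sets. Of 1052 measured, 1013 lay among the 3626 dimmest genes. At p under 0.05 there were 92 (51 higher and 41 lower, 8.75%), so they made up 15.1% of the 608 genes at that level and 7.25% of all genes. Of the other 2613 dimmest genes 6.66% had p under 0.05, and of the 3627 brightest genes 2.34%.

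The 13905 probe sets that name no single gene were tested together with the named ones. None was called, and 761 (5.47%) had p under 0.05, with 201 at least 1.5-fold apart.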
